A study of Homo sapiens with 15 samples.

Results

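The genes described here carry sulfur from methionine to cysteine and glutathione and break glutathione down again. They are 10 genes chosen by name, namely MAT2A, AHCY, CBS, CTH, GCLC, GSS, GPX4, CHAC1, CHAC2 and GGCT. The array holds 13 probes whose RefSeq accession belongs to one of them, and each gene was read from its brightest probe. All 10 were among the 26834 features tested, of which 16569 have a gene symbol. Their signals were well above background on all 15 arrays, and the dimmest of them had a processed signal of 387. The array values do not show which enzyme activities or metabolite levels the cells had.

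A2058 is an established human melanoma line, grown here in EMEM with fetal bovine serum, and total RNA was taken 8 h after treatment. There were 5 groups of 3 arrays each, one per replicate number, which were the solvent DMSO, NP at 3 μM, water, metformin at 5 mM and phenformin at 50 μM. Every group is the same parental line, with no introduced gene or deletion. Metformin and phenformin are biguanides, and phenformin carries a phenylethyl group where metformin carries small methyl groups. NP is the name on the samples, and neopetasin appears in the series title, whereas the study's methods give petasin for the same line, dose and time. The arrays do not settle which of these related compounds was used. The study measured these arrays to compare an inhibitor of mitochondrial complex I from butterbur with the biguanides, which inhibit the same complex. DMSO and NP arrays shared 1 set of slides, and water, metformin and phenformin arrays shared another. Each array had between 25799 and 45010 of 58201 probes well above background. Of 8 melanocyte lineage markers, 7 were above background on all 15 arrays and TYR was on 13. Of 4 markers of melanoma with low MITF, 3 were above it on all 15. Of 5 epithelial markers, KRT8 and KRT18 were above background on all 15 while EPCAM, CDH1 and KRT5 were on none. Of other cell types, 3 of 3 endothelial, 2 of 4 leukocyte and 1 of 3 fibroblast markers were also above background on all 15. Being above background thus does not by itself tell the lineage.

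Methionine is activated to S-adenosylmethionine, the methyl donor of the cell, and the homocysteine left after methyl transfer can be passed through transsulfuration to become cysteine. Cysteine is usually the scarce building block of glutathione, the tripeptide of glutamate, cysteine and glycine that cells use against peroxides and electrophiles. CHAC1 and CHAC2 are γ-glutamyl cyclotransferases that cut glutathione inside the cell. CHAC1 is a well known target of the transcription factor ATF4 in the integrated stress response. That response is set off by amino acid shortage, unfolded proteins in the endoplasmic reticulum or mitochondrial dysfunction. CTH is also known to respond to this pathway.

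Of these 10 genes, 3 were higher with every compound in every replicate, and the other 7 had changes of at most 0.42 log2 units in size, none of them called. CHAC1 was 3.56-fold of DMSO with NP, 4.40-fold of water with metformin and 5.29-fold of water with phenformin. CTH, the enzyme that releases cysteine, was 3.37-fold, 1.86-fold and 2.32-fold in the same order, and CBS, which feeds it, was 1.60-fold, 1.52-fold and 1.69-fold. GPX4 and GSS changed by at most 0.15 log2 units with any compound, as the plot of changes with their intervals shows. Each array averages a culture, so that more cells with a transcript and more transcript per cell cannot be told apart. A gene was called when limma's adjusted p, by the Benjamini-Hochberg method over all features, was at most 0.05 and its change was at least 1.5-fold.

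**Figure D1:**
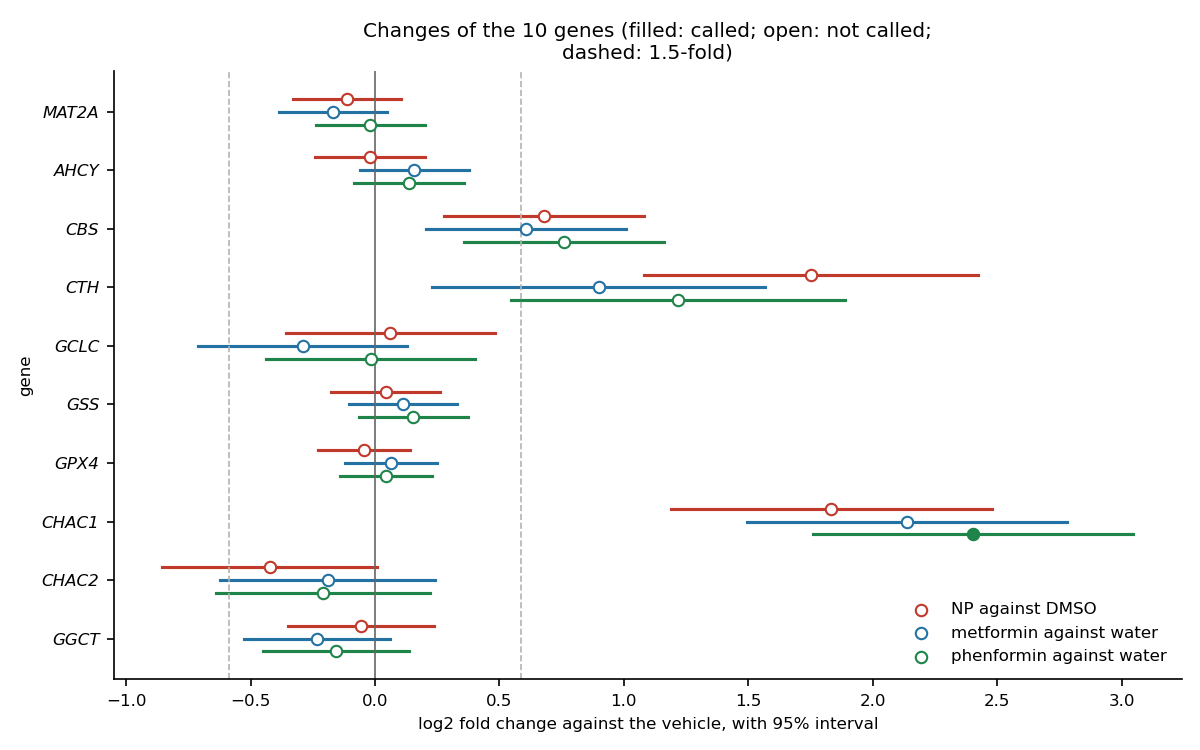
Log2 fold change of each of the 10 genes against its vehicle (x axis) with the 95% interval of the limma fit over 15 arrays, for NP against DMSO, metformin against water and phenformin against water. CHAC1 lies between 1.83 and 2.40, CTH between 0.90 and 1.75 and CBS between 0.61 and 0.76, and every interval of these 3 genes lies above 0; the filled point, CHAC1 with phenformin, is the one that was called.

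By that rule limma called 0 of 10 with NP, where it called 10 of all features (0.0373%), 0 of 10 with metformin, where it called none of all features (0%), and 1 of 10 with phenformin, where it called 7 of all features (0.0261%). The one call was CHAC1. At an unadjusted p under 0.05 the count was 3 of 10 in each comparison, always CHAC1, CTH and CBS, beside 1258 (4.69%), 659 (2.46%) and 631 (2.35%) of all 26834 features for NP, metformin and phenformin. The methods' paired test was run here with water as the vehicle of the biguanides, whereas the study's methods set them against DMSO. Unadjusted and with the 1.5-fold limit, it also passed these 3 in each comparison, beside 214 (0.797%), 124 (0.462%) and 168 (0.626%) of all features. After adjustment it passed no feature in any comparison.

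Arrays of the same replicate number within a set of slides deviated together, so a fit with the replicate number inside each set was also made. That fit called CHAC1 and CTH with NP (adjusted p = 0.0302 and 0.0133), among 52 features in all (0.194%). It called CHAC1 with phenformin (adjusted p = 0.0245), among 9 features (0.0335%). It called none of the 10 genes with metformin, among 2 features (0.00745%). The metformin and phenformin values are differences from the same 3 water arrays and so are not independent of each other.

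The groups of 3 arrays did not overlap, with the compound higher, for 2 of the 10 genes with NP (3.04% of all features), 3 with metformin (3.48%) and 4 with phenformin (3.83%). With NP these were CHAC1 and CTH, with metformin CBS joined them, and with phenformin GSS did too. With NP, 1 of 10 genes, CHAC2, was lower without overlap (3.43% of all features).

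**Figure D2:**
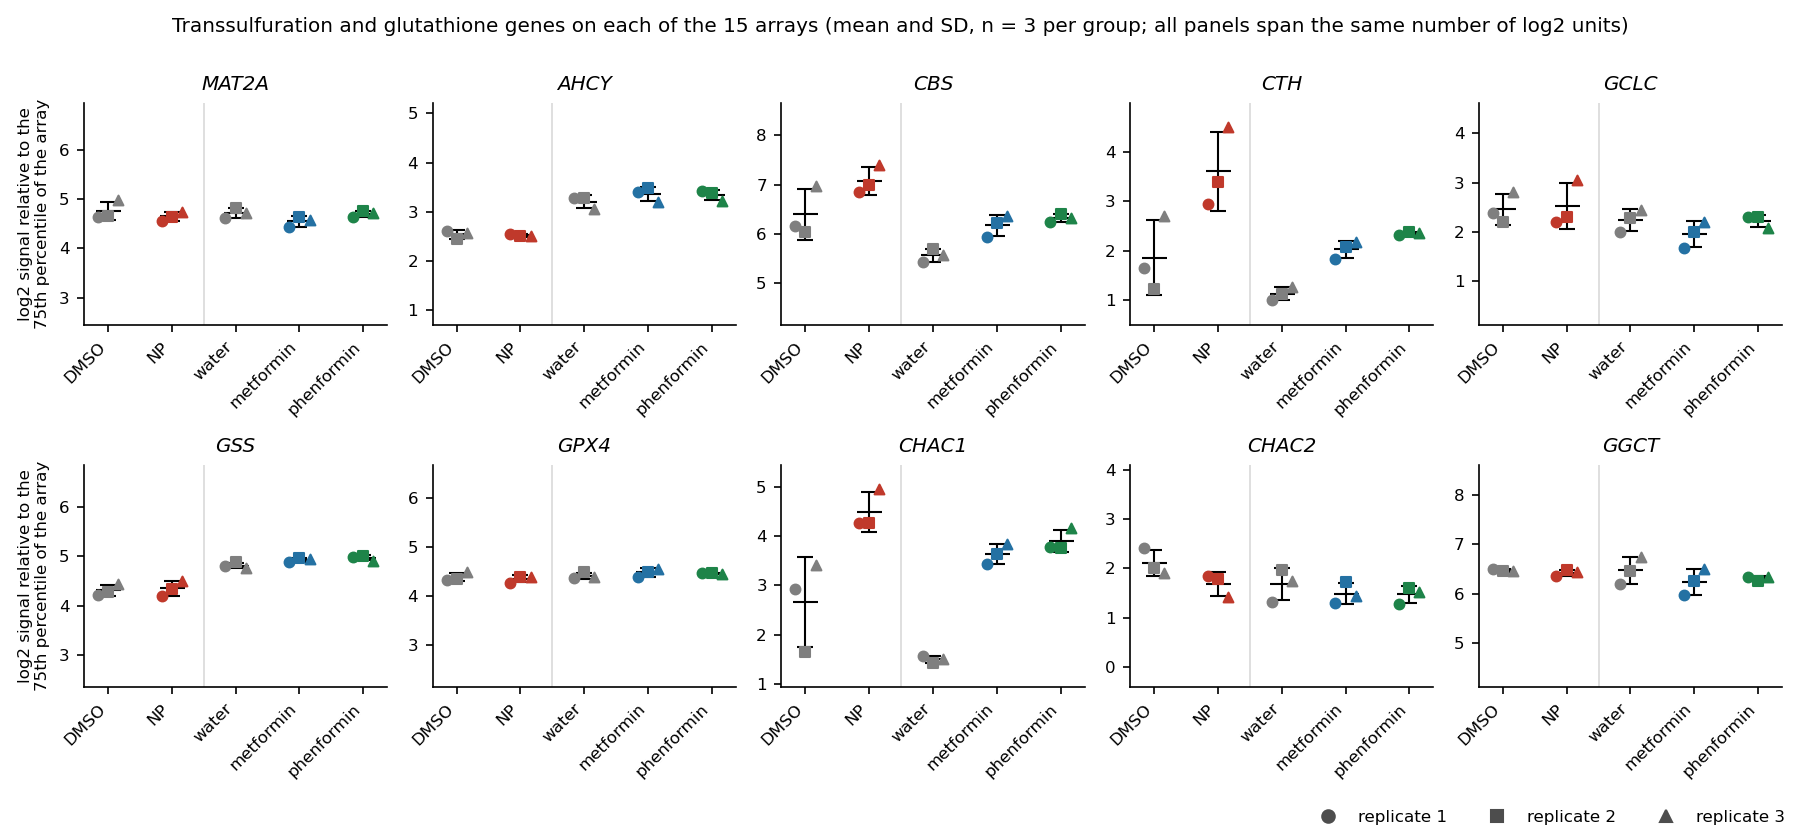
Log2 signal relative to the array's 75th percentile (y axis) of each of the 10 genes on every array, by group (x axis), with circles, squares and triangles for replicates 1, 2 and 3 and bars for the mean and SD (n = 3). CHAC1, CTH and CBS are higher in the compound groups, the DMSO arrays spread widely for CHAC1 and CTH, and AHCY and GSS differ mainly between the 2 sets of slides.

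CHAC1 cuts glutathione into 5-oxoproline and cysteinylglycine. In log2 units relative to the 75th percentile of each array, replicates 1, 2 and 3 stood at 2.93, 1.64 and 3.40 with DMSO and at 4.26, 4.26 and 4.96 with NP. They stood at 1.56, 1.43 and 1.504 with water, at 3.43, 3.64 and 3.84 with metformin and at 3.78, 3.76 and 4.16 with phenformin. The water arrays lay within 0.13 of each other, while DMSO replicate 2 lay close to the water level and the other DMSO arrays lay well above it, so that the DMSO arrays spanned 1.76. Every compound array lay above every array of its vehicle.

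The log2 fold change of CHAC1 was 1.83 ± 0.29 with NP (SE, adjusted p = 0.0901), 2.14 ± 0.29 with metformin (adjusted p = 0.204) and 2.40 ± 0.29 with phenformin (adjusted p = 0.0406). The increase with NP was 1.33, 2.62 and 1.56 in replicates 1, 2 and 3, against 1.87, 2.21 and 2.33 with metformin and 2.22, 2.33 and 2.66 with phenformin. The NP increase was largest in replicate 2, whose DMSO array was the low one. On the slide of replicates 1 and 2 the phenformin increase was 2.28, and on that of replicate 3 it was 2.66. The phenformin call was lost when replicate 1, 2 or 3 was left out of all groups (adjusted p = 1.00, 0.544 and 0.753), with log2 fold changes of 2.49, 2.44 and 2.28, and in each of these smaller fits 0 of all features were called with phenformin. A second CHAC1 probe, for the same transcript, gave log2 fold changes of 1.72, 2.14 and 2.31 for NP, metformin and phenformin.

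Because CHAC1, CTH and CBS were the genes that were higher together, the 250 bases before a start site of each are shown, with those of CHAC2, the close relative of CHAC1 that was not higher, beside them. The sequences are RefSeq's on GRCh38.p14, written 5′ to 3′ along the gene's own strand, and they end at the base before a RefSeq start site. CHAC1 lies on chr15:40953221-40953470, plus strand, CTH on chr1:70411018-70411267, plus strand, CHAC2 on chr2:53767533-53767782, plus strand, and the CBS window on chr21:43076378-43076627, minus strand. CBS and CHAC2 have further start sites, whose windows are not shown. Capitals mark the letters that match a motif searched for.
CHAC1: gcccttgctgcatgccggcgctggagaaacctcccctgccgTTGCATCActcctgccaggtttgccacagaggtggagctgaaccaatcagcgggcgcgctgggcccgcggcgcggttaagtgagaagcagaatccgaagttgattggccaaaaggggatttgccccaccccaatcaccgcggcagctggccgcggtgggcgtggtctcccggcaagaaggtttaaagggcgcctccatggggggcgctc
CTH: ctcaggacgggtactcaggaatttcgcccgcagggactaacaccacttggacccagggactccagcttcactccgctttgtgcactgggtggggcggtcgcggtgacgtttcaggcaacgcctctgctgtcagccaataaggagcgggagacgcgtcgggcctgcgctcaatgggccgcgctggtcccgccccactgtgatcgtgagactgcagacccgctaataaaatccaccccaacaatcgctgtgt
CBS: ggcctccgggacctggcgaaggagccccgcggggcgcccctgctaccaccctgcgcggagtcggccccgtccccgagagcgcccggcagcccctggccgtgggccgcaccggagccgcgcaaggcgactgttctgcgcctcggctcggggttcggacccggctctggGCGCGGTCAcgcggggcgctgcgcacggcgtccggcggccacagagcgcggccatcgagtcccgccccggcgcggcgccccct
CHAC2: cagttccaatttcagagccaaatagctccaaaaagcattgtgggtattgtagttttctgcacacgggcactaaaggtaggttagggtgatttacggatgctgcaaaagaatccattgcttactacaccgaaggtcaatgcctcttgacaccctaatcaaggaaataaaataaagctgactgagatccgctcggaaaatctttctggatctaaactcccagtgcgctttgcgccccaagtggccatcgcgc

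In these windows 3 motifs were searched on both strands. They were the C/EBP-ATF response element, TGATGNAA, the cyclic AMP response element, TGACGTCA, and the antioxidant response element core, TGACNNNGC. Of the 10 genes, 8 had entries, with 15 start sites in all. The C/EBP-ATF element was found in CHAC1 alone, on the opposite strand as TTGCATCA, with its first base 209 bases before the start. That motif was in 3.14% of 35116 human promoter windows of this length, and in a window of 3.89% of 27305 genes. The cyclic AMP element was in none of the 8 (1.65% of all windows, 2.03% of genes). The antioxidant core was in CBS alone (10.9% of all windows, 13.2% of genes). It read GCGCGGTCA, with its first base 83 bases before the start, and was in the CBS window shown but not in the other CBS windows. No window of the 8 genes held more than 1 of these motifs. The letters are a description of 250 bases and do not bear on whether a factor was bound.

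**Figure D3:**
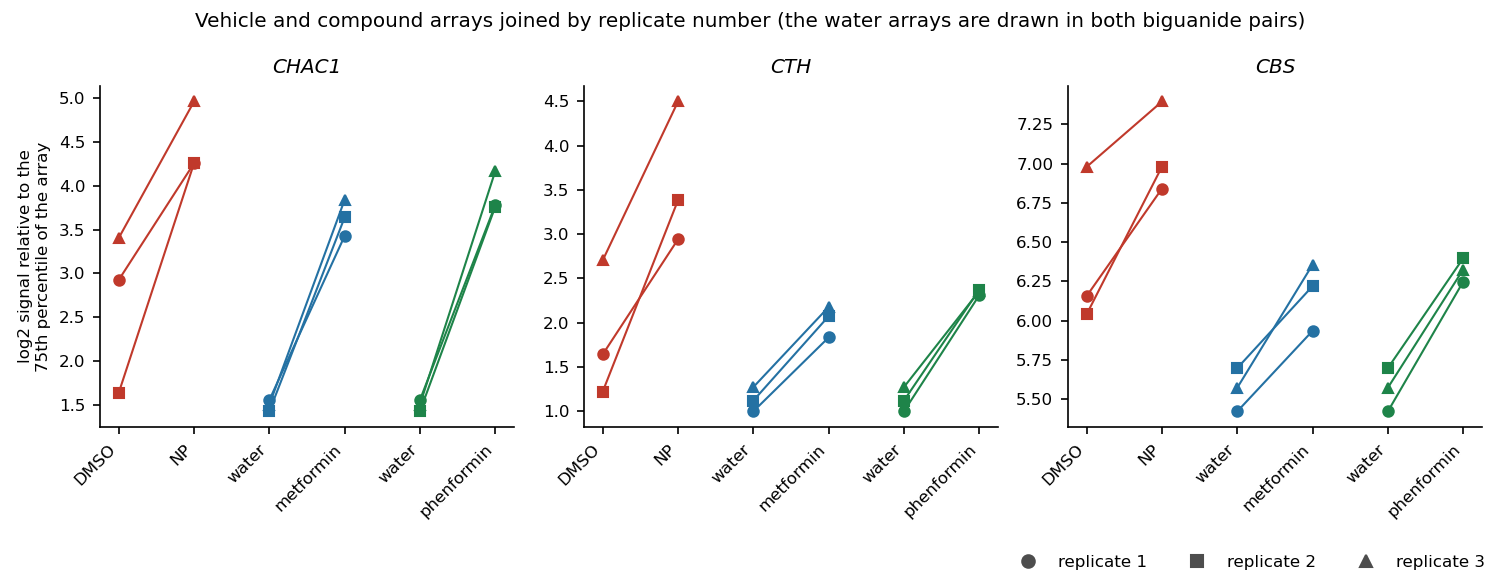
Log2 signal relative to the array's 75th percentile (y axis) of CHAC1, CTH and CBS on vehicle and compound arrays, joined by replicate number, with circles, squares and triangles for replicates 1, 2 and 3. Every line goes up, and replicate 3 of the DMSO and NP arrays lies highest for all 3 genes.

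CTH, cystathionine gamma-lyase, splits cystathionine into cysteine and is the last step of transsulfuration. It stood at 1.64, 1.22 and 2.71 with DMSO and at 2.94, 3.38 and 4.50 with NP. It stood at 1.00, 1.12 and 1.27 with water, at 1.83, 2.07 and 2.18 with metformin and at 2.31, 2.37 and 2.36 with phenformin. Replicate 3 was the highest array with DMSO and with NP, the groups did not overlap, and the 3 phenformin arrays lay within 0.06 of each other.

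The log2 fold change of CTH was 1.75 ± 0.30 with NP (adjusted p = 0.130), 0.90 ± 0.30 with metformin and 1.22 ± 0.30 with phenformin (adjusted p = 1.00 for both). The 3 replicates gave 1.30, 2.16 and 1.79 with NP, and from 0.84 to 0.95 with metformin and from 1.09 to 1.31 with phenformin. The increase with NP was therefore seen within each slide, at 1.73 for replicates 1 and 2 and 1.79 for replicate 3.

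CBS, cystathionine beta-synthase, joins homocysteine and serine and is the entry into transsulfuration. Its probe may also read CBSL, a near-identical copy of the gene. It stood at 6.16, 6.04 and 6.98 with DMSO and at 6.84, 6.98 and 7.40 with NP. It stood at 5.42, 5.70 and 5.57 with water, at 5.93, 6.22 and 6.36 with metformin and at 6.25, 6.40 and 6.33 with phenformin. Both biguanide groups lay above all water arrays, whereas DMSO replicate 3 lay at the level of the NP arrays and made those groups overlap.

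The log2 fold change of CBS was 0.68 ± 0.18 with NP (adjusted p = 0.595), 0.61 ± 0.18 with metformin and 0.76 ± 0.18 with phenformin (adjusted p = 1.00 for both). The replicates gave 0.68, 0.94 and 0.42 with NP, 0.51, 0.52 and 0.78 with metformin and 0.83, 0.70 and 0.75 with phenformin. With the replicate number inside each set of slides the adjusted p with NP was 0.0765, short of the threshold.

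MAT2A makes S-adenosylmethionine from methionine outside the liver. It lay between 4.43 and 4.98 on all 15 arrays, with log2 fold changes of −0.11 ± 0.10 with NP, −0.17 ± 0.10 with metformin and −0.02 ± 0.10 with phenformin. It was lower in 3 of 3 replicates with NP and with metformin, and its second probe gave 0.00, −0.01 and 0.05. AHCY hydrolyses S-adenosylhomocysteine to homocysteine, the substrate of CBS. Its log2 fold changes were −0.02 ± 0.10, 0.16 ± 0.10 and 0.14 ± 0.10 in the same order, with adjusted p of 1.00 for each. These genes upstream of CBS thus gave 95% intervals between −0.39 and 0.38, all inside the 1.5-fold limit of 0.585 log2 units.

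GCLC is the catalytic subunit of glutamate-cysteine ligase, the rate-limiting step of glutathione synthesis. Replicates 1, 2 and 3 stood at 2.39, 2.19 and 2.81 with DMSO and 2.21, 2.30 and 3.06 with NP, at 2.00, 2.28 and 2.45 with water, 1.68, 1.99 and 2.19 with metformin and 2.30, 2.30 and 2.09 with phenformin. The arrays of all groups overlapped with those of their vehicle. The log2 fold changes were 0.06 ± 0.19, −0.29 ± 0.19 and −0.02 ± 0.19 for NP, metformin and phenformin (adjusted p = 1.00 for each). With metformin all 3 replicates were lower, by 0.26 to 0.32 log2 units, and the interval, −0.71 to 0.13, does not exclude a 1.5-fold decrease.

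GSS, glutathione synthetase, adds glycine in the second step. It changed by 0.04 ± 0.10 with NP, 0.11 ± 0.10 with metformin and 0.15 ± 0.10 with phenformin, and the 3 phenformin arrays, from 4.91 to 5.01, lay just above the 3 water arrays, from 4.77 to 4.88. GPX4 uses glutathione to reduce lipid peroxides in membranes and is the gatekeeper of ferroptosis. It lay between 4.27 and 4.56 on all 15 arrays, the narrowest range of the 10 genes, and its log2 fold changes were −0.04, 0.07 and 0.04 with SE of 0.08 each. Neither gene was near the 1.5-fold limit, since their 95% intervals over all 3 comparisons ran from −0.23 to 0.37.

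CHAC2 is the slower, constitutive relative of CHAC1 and has the same cyclotransferase activity. It stood at 2.41, 2.00 and 1.90 with DMSO and at 1.85, 1.79 and 1.41 with NP, and at 1.32, 1.97 and 1.74 with water, 1.30, 1.72 and 1.45 with metformin and 1.29, 1.61 and 1.52 with phenformin. It was lower in 3 of 3 replicates with each compound. The log2 fold changes were −0.42 ± 0.19 with NP, −0.19 ± 0.19 with metformin and −0.21 ± 0.19 with phenformin, with adjusted p of 1.00 for each, so that none passed the test. The 95% intervals, −0.85 to 0.01, −0.62 to 0.24 and −0.64 to 0.22, do not exclude a 1.5-fold decrease. The lowest DMSO array and the highest NP array were 1.90 and 1.85.

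GGCT acts on γ-glutamyl amino acids, downstream in the same cycle. Its log2 fold changes were −0.06 ± 0.13, −0.23 ± 0.13 and −0.16 ± 0.13 for NP, metformin and phenformin (adjusted p = 1.00 for each), and its second, dimmer probe gave −0.15, −0.20 and −0.22. With metformin it was lower in 3 of 3 replicates, by 0.21 to 0.26. Of the 3 cyclotransferases, CHAC1 was thus the one that was higher with the compounds.

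The 2 vehicles did not start from the same level. Between DMSO and water 2847 of all features were called (10.6%), with a median shift of −0.12 over all of them, and of the 10 genes CHAC1 and CBS were called higher and AHCY lower with DMSO. CHAC1 was higher by 1.16 ± 0.29 log2 units (adjusted p = 0.0248), CBS was higher by 0.83 ± 0.18 (adjusted p = 0.0155) and AHCY fell by 0.66 on the log2 scale (SE 0.10, adjusted p = 0.00481). GSS stood lower by a log2 fold change of −0.51 ± 0.10, an adjusted p of 0.0106 but less than the fold limit, and CTH was 0.73 ± 0.30 higher (adjusted p = 0.121). The solvent and the set of slides cannot be told apart here.

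The 3 DMSO and 3 water arrays did not overlap for any of the called genes, nor for GSS. The share of all features without overlap between the vehicles was not counted, so this only describes these genes. CHAC1 spanned 1.64 to 3.40 with DMSO and 1.43 to 1.56 with water, CBS 6.04 to 6.98 and 5.42 to 5.70, and AHCY 2.44 to 2.61 and 3.05 to 3.28. The DMSO arrays were thus far apart for CHAC1 and CBS and close together for AHCY. Without replicate 1 or without replicate 2 no feature at all was called, and the log2 fold changes were then 1.06 and 1.63 for CHAC1 (adjusted p = 0.228 and 0.112), 0.88 and 1.07 for CBS (0.170 and 0.114) and −0.66 and −0.57 for AHCY (0.117 and 0.132). Without replicate 3, where 5061 features were called, CHAC1 was at 0.79 (adjusted p = 0.145) and CBS at 0.54, under the fold limit, and AHCY and GSS were called. The study's methods set all compounds against DMSO. Relative to DMSO, CBS with metformin and phenformin lay at log2 differences of −0.22 and −0.07, so that its sign depends on the vehicle chosen. The size of the CTH change depends on it as well. CTH averaged 2.03 with metformin and 2.34 with phenformin, against 1.86 with DMSO and 1.13 with water. Against DMSO, CTH was not called with either biguanide.

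Whether NP acted on these genes to another extent than the biguanides was tested as the difference of their effects, each against its own vehicle. None of the 10 genes was called for NP minus metformin (0% of all features) or NP minus phenformin (0%). The CTH effect of NP was larger than that of metformin by 0.85 log2 units (95% interval −0.09 to 1.80, adjusted p = 1.00) and larger than that of phenformin by 0.54 (−0.41 to 1.49). The CHAC1 effect of NP was smaller by 0.30 (difference −0.30, interval −1.22 to 0.61) and by 0.57 (difference −0.57, interval −1.48 to 0.34). For CBS the differences were 0.07 (−0.50 to 0.64) and −0.08 (−0.65 to 0.49). These intervals leave room for differences of over 1.5-fold in any of the 3 genes, and the doses were 3 μM, 5000 μM and 50 μM, so that they compare the treatments as given. For the same reason the metformin and phenformin changes, 0.90 and 1.22 for CTH, 2.14 and 2.40 for CHAC1 and 0.61 and 0.76 for CBS, stand side by side without a test.

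The wider pathway was read from 8 lists of 76 further genes of sulfur amino acid and glutathione metabolism, of which 74 had a probe and 67 were tested. None of the 67 was called in any of the 3 comparisons by limma, and at an unadjusted p under 0.05 there were 2 in each, beside 4.69%, 2.46% and 2.35% of all features. The median log2 fold change was −0.02 with NP, −0.01 with metformin and 0.03 with phenformin, against −0.01, 0.00 and −0.03 over all features. The plot of the lists shows genes on both sides of 0, with 27 of 67 above 0 with NP, 31 with metformin and 39 with phenformin. Among the 8 lists, the 2 genes of cystine import had the highest median with each compound.

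With NP the cystine importer SLC7A11 had a larger value than CBS. SLC7A11, the cystine and glutamate exchanger xCT, stood at 4.20, 4.15 and 4.22 with DMSO and at 4.85, 5.16 and 4.96 with NP. It stood at 2.54, 2.64 and 3.15 with water, 2.77, 3.04 and 3.60 with metformin and 3.13, 3.21 and 3.54 with phenformin. It was higher in 3 of 3 replicates with each compound, without overlap for NP. The log2 fold changes were 0.79 ± 0.16 (adjusted p = 0.235), 0.36 ± 0.16 and 0.52 ± 0.16 (adjusted p = 1.00 for both), and with the replicate number inside each set of slides NP was called (adjusted p = 0.0317). Its heavy chain SLC3A2, named after its values were seen, was 0.32 ± 0.12, 0.33 ± 0.12 and 0.34 ± 0.12 higher. SLC7A11 also was higher with DMSO than with water, by 1.42 ± 0.16 (adjusted p = 0.00340), a larger difference than any compound gave.

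None of the genes of the other lists passed the test. The largest change of the methionine cycle list was that of MTR, methionine synthase, with metformin (−0.30 ± 0.13), and with phenformin that of GNMT, a glycine methyltransferase (−0.34 ± 0.48), which was above background on 0 of 6 DMSO and NP arrays and so has no fold there. Of the genes that use cysteine and sulfide, ETHE1, a persulfide dioxygenase, was largest with NP (0.22 ± 0.13) and GOT1, an aspartate aminotransferase, with metformin (0.23 ± 0.12) and phenformin (0.24 ± 0.12). GCLM, the modifier subunit that partners GCLC, gave −0.04, −0.21 and −0.13 with SE of 0.14 each.

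Among genes of glutathione breakdown the largest values were those of GGACT, a γ-glutamylamine cyclotransferase, with NP (0.31 ± 0.18), GGT1, which cleaves glutathione outside the cell, with metformin (0.28 ± 0.31), and GGT6 with phenformin (−0.44 ± 0.39). In the redox list they were those of GPX3, the secreted peroxidase, with NP (−0.33 ± 0.18), and of GPX2 with metformin (0.33 ± 0.60) and phenformin (−0.36 ± 0.60). Among the transferases GSTA2 gave 0.36 ± 0.31, −0.33 ± 0.31 and −0.28 ± 0.31. It was above background on only 1 of 3 DMSO and 1 of 3 NP arrays, so the NP value is not a reliable fold. In the transport list SLC25A40 gave 0.11 ± 0.16 with NP, and SLC25A39, which carries glutathione into mitochondria, gave 0.15 ± 0.10 with metformin and 0.11 ± 0.10 with phenformin. GGT6, GPX2 and GSTA2 were near background, on 12, 9 and 11 of 15 arrays above it, and none of these genes passed the test.

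Over the 15 arrays the genes whose log2 values were most like those of CHAC1, by Pearson's r among 13860 genes, were SESN2 (0.949), ATF4 (0.943), JDP2 (0.929), SLC6A9 (0.922) and NUPR1 (0.909). CTH came 14th (0.881) and CBS 26th (0.833), whereas CHAC2 had an r of −0.295 with CHAC1. The genes most like CTH were TSC22D3 (0.992), GRB10 (0.981), SARS1 (0.969), PSPH (0.968) and ANKFN1 (0.958), and CBS was 12th (0.946). GCLC followed CTH at 0.569, and no other of the 10 genes had an r with CTH above 0.13 apart from CBS and CHAC1. The arrays share the groups, slides and replicate numbers that these values also follow, so the r values are descriptions over 5 groups and carry no test.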

How the data were processed

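Total RNA of each of 15 cultures was labelled with a single dye and hybridised to an Agilent human array. The authors extracted each array with Agilent Feature Extraction (version 10.7.3.1 in the file headers, 9.1 in the submitters' processing notes), and the deposited processed intensity of a spot is background-subtracted and detrended but not normalised between arrays. The authors also deposited a table of log2 values, scaled to the 75th percentile of each array and with no value under 4. No probe was saturated.

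Here control and outlier spots were removed, spots of a probe were averaged, and log2 of the array's 75th percentile was subtracted. Of 58201 probes, 32913 passed the filter, which asked for a signal well above background in each of the 3 arrays of some group. The brightest passing probe stood for a gene, given values on at least 8 arrays. Symbols came from RefSeq accessions (31034 of 31770 matched), and sequences from RefSeq's promoter table. R 4.3.3, limma 3.58.1, Python 3.11.15, pandas 2.3.3, numpy 2.4.6 and matplotlib 3.10.9 were used.

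One limma model (lmFit, then eBayes) held the 5 groups and the replicate number for the 15 arrays together. Tests were two-sided, p-values were adjusted over 26834 features by the Benjamini-Hochberg method, and the fit was first tested on simulated data. Intervals are 95%. The labels give replicate numbers, and the series record describes the experiments as independent. Deviations from group means correlated at 0.216 to 0.855 for the 12 same-numbered pairs within a set of slides, at −0.186 to 0.226 for the 18 pairs across sets, and at −0.783 to 0.289 for the 24 differently numbered pairs within a set. Same-numbered arrays thus deviated together within a set and not across sets. For DMSO and NP, replicates 1 and 2 shared a slide. They were almost as alike across numbers (0.243 and 0.289) as within them (0.306 and 0.331), and replicate 3, on another slide, stood apart (0.645). In that set the replicate number and the slide are therefore hard to tell apart. The model used for all values had 1 replicate term common to both sets, and the fit with numbers nested in the sets is given where it changed a call. The genes, lists, comparisons and alternatives were chosen with earlier results of these data known. The rule for naming genes took the 10 genes, the pathway genes called and the largest change of each list in each comparison, and the 5 genes most like CHAC1 and CTH. With 3 arrays per group, their number limits the precision, and dim probes are limited by signal over background.

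The alternatives were a fit without the replicate block, one with an added slide term, one with replicate numbers nested in the slide sets, values within a slide, normexp with an offset of 50 on the median spot signal, quantile normalisation, the authors' table, other filters on dim probes, the mean of a gene's probes, only the groups compared, the methods' t-test, each replicate number left out, and DMSO as comparator.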

Additional observations from a re-analysis of the deposited data

How the results depend on the processing

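The direction of CHAC1, CTH and CBS held under all alternatives against their own vehicle (log2 fold change from 1.44 to 2.09, 1.55 to 1.98 and 0.42 to 0.81 with NP, 2.02 to 2.33, 0.82 to 0.93 and 0.52 to 0.78 with metformin, and 2.28 to 2.66, 1.09 to 1.28 and 0.73 to 0.79 with phenformin), but the calls did not. Of the 10 genes and of all features, counts against 0 and 10 with NP, 0 and 0 with metformin and 1 and 7 with phenformin were as follows. Without the replicate block there were 3 features with NP, and 0 genes and 0 features with phenformin. An added slide term gave 2 genes of 63 features with NP, 2 features with metformin and 2 genes of 16 with phenformin. With the replicate block within each set of slides there were 2 genes of 52 features with NP and 2 features with metformin. That fit changed no other call of the 10 genes with any compound. Normexp gave 2 genes of 26 features with NP and 1 gene (CHAC1, adjusted p = 0.0465) of 2 with metformin. Quantile normalisation gave 17 features with NP, probes above background on all 15 arrays gave 1 gene (CHAC1) of 26, and with no filter or with only the groups compared there were 0 features with NP and 0 genes and 0 features with phenformin. The methods' t-test, run with water as the vehicle of the biguanides, gave, unadjusted, 3 genes of 214, 124 and 168 features for NP, metformin and phenformin, and after adjustment 0 of 0 with NP and with phenformin. Leaving out any replicate number gave 0 genes and 0 features in the 3 comparisons. Against DMSO there were 4 genes of 4574 features with metformin and 4 of 2766 with phenformin (CHAC1, CHAC2, GSS and AHCY in both). These comparisons cross the sets of slides, and 26834 features were tested in each. Between DMSO and water, where 3 genes and 2847 features were called, normexp gave 1202 features, and leaving out a replicate gave 0 to 2 genes and 0 to 5061 features. Leaving out arrays also leaves fewer residual degrees of freedom, and the cause of none of these differences was tested.

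Signs turned for values near 0. With NP, GSS was −0.014 with normexp, and leaving out a replicate number gave −0.033 to 0.18 for GCLC and −0.061 to 0.0020 for AHCY. With phenformin, GCLC was 0.034 with normexp and −0.17 to 0.16 with a replicate number left out, and MAT2A was 0.016 as the mean of its probes and −0.043 to 0.0088 with a replicate number left out. For CBS against DMSO the values were −0.22 with metformin and −0.069 with phenformin. Between DMSO and water, GPX4 was 0.045 with quantile normalisation, and leaving out a replicate number gave −0.080 to 0.031 for GPX4, −0.15 to 0.15 for GGCT and −0.064 to 0.15 for MAT2A.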
